A study of Homo sapiens with 9 samples.

Results

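Transcripts of 10 genes that drive or restrain the step from G1 to S phase were followed in A2780 cells, an established line of human ovarian carcinoma, after treatment with DIG-MSK. They are 5 cyclins (CCND1, CCND2, CCND3, CCNE1 and CCNE2), 3 cyclin-dependent kinases (CDK2, CDK4 and CDK6) and 2 inhibitors of these kinases (CDKN1B and CDKN2A). The genes were chosen by name, but with earlier results of these data known, so the choice was not blind to the data. Every gene probe on the array whose RefSeq accession belongs to one of them was taken. This gave 13 of the 42405 gene probes. All 10 genes were among the 21832 genes that could be tested.

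DIG-MSK is an analogue of mithramycin A, an antibiotic that binds the minor groove of GC-rich DNA. RNA came from untreated cultures, from cultures given 8 nM DIG-MSK for 24 h and from cultures given 80 nM for 24 h, with 3 arrays per group and 9 in all. Each array was hybridised with the Cy3-labelled RNA of 1 culture, and the methods of the study describe the replicates as independent. The groups share 1 cell line, and the labels give no other treatment.

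In G1, the D-type cyclins join CDK4 or CDK6 and the E-type cyclins join CDK2. These kinases phosphorylate the retinoblastoma protein and its relatives, which frees E2F factors to switch on the genes of DNA replication. CDKN1B encodes p27, which binds cyclin E-CDK2 complexes, and CDKN2A encodes p16, which binds CDK4 and CDK6, and from another first exon an unrelated protein, ARF, that acts through p53. Loss or excess of these proteins is common in carcinomas, and E-type cyclin gain is well known in ovarian carcinoma.

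A level below is the log2 of the background-corrected spot intensity minus the log2 of the 75th percentile of the same array, so 0 is the 75th percentile and 1 unit is a doubling. Probes differ in how they hybridise, and levels are therefore compared between groups within a probe and never between genes. The 75th percentile lay between 831.7 and 1170 intensity units on the 9 arrays, and between 24814 and 27151 of the probes of an array were well above background. The untreated and 8 nM arrays were on 1 slide with 1 scan and the 80 nM arrays were on another, so the effect of 80 nM and that of the slide cannot be told apart, while 8 nM was compared with untreated within a slide. The mean net signal of the negative control spots was 31.1 to 38.6 on the first slide and 22.1 to 22.7 on the slide of the 80 nM arrays. Epithelial EPCAM, KRT8 and KRT18, carcinoma-associated KRT7 and mesenchymal VIM were well above background on all 9 arrays, with 1 of 2 probes in the case of KRT8. CDH1, WT1 and MUC16 were above it on none, and PAX8 on 3. Of the markers of other cells, PTPRC was above background on all 9 arrays with 1 of its 4 probes, CD3E and VWF on 3 arrays each and PECAM1 on none. The arrays measured whole cultures, in which fewer cells with a transcript and less transcript per cell cannot be told apart.

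Because the drug binds GC-rich DNA, the promoters of the genes are shown first. RefSeq windows on GRCh38.p14 were given for 6 of the genes (CCND3, CCNE1, CDK4, CDK6, CDKN1B and CDKN2A), 10 windows in all, and not for CCND1, CCND2, CCNE2 and CDK2. The 250 bases before each annotated start were searched for the GC box GGGCGG on both strands, with overlapping matches counted, and 7 of the 10 windows held at least 1. Of all 35116 windows of this length, 42.6% held a GC box and 13.9% held 3 or more. The windows of the 10 starts were between 61.2% and 81.2% G or C, with a median of 67.2%, against a median of 58.0% over all windows.

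The sequences that follow are the first windows of CCND3 and CDK6, the genes with the largest rise and the largest fall at 80 nM, that of CCNE1, which held the most GC boxes and did not pass the test at either concentration, and both windows of CDKN2A. CDKN2A was read by 2 probes of different transcripts, and which start each of these transcripts uses was not settled. GC boxes are in capitals, each window ends at the base before the annotated start, and all are written along the strand of the gene. They are CCND3 at chr6:42048689-42048938, CDK6 at chr7:92836574-92836823, CCNE1 at chr19:29811741-29811990 and CDKN2A at chr9:21995325-21995574 for the first start and chr9:21974858-21975107 for the second, with CCNE1 on the plus strand and the others on the minus strand.
CCND3, first start: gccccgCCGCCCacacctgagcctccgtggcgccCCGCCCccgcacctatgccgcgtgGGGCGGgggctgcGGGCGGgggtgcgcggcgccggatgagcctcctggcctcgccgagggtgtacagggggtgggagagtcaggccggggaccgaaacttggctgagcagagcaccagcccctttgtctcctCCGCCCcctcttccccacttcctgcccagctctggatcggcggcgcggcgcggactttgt
CDK6, first start: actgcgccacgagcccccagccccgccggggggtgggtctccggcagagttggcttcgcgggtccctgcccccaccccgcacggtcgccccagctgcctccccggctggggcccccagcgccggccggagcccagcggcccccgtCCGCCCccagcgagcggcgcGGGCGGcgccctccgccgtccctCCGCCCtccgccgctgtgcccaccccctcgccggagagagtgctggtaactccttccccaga
CCNE1: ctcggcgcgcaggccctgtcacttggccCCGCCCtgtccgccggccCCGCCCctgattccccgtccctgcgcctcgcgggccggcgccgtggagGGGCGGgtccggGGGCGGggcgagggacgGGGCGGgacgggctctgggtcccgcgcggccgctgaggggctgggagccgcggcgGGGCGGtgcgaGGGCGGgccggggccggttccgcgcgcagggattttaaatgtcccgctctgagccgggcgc
CDKN2A, first start: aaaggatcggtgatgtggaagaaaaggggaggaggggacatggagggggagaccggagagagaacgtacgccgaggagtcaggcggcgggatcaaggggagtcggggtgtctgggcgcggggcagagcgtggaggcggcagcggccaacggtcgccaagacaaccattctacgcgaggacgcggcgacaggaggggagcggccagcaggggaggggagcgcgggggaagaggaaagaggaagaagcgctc
CDKN2A, second start: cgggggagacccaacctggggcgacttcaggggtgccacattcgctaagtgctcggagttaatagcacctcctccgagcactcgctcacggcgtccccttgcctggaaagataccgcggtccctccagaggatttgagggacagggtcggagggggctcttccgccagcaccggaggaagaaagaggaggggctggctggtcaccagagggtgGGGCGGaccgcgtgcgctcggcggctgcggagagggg

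CCNE1 held 7 GC boxes, CCND3 held 5 before its first start, 2 before the second and none before the third, and CDK4 held 3. CDK6 held 3 before its first start and none before its second, CDKN1B held 1, and CDKN2A held none before its first start and 1 before its second. Genes that rose at 80 nM (CCND3, CDK4), a gene that did not pass (CCNE1) and genes that fell (CDK6, CDKN1B, CDKN2A) all held GC boxes before at least 1 start. The files do not say which start was in use in these cells, and a match is a description of the letters and not of binding.

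**Figure D1:**
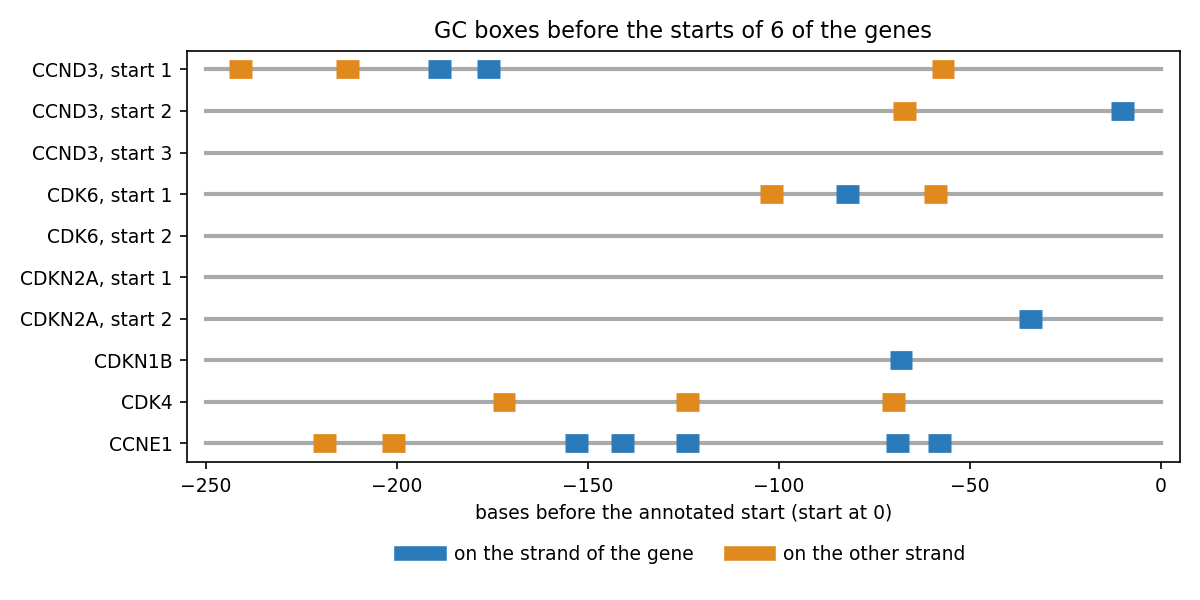
GC boxes (GGGCGG on either strand) in the 250 bases before each of 10 annotated starts of 6 genes, with the distance from the start in bases on the x axis and 1 line per start. The boxes of CCNE1 (7) lie between -222 and -55. Those before the first start of CCND3 (5) lie between -244 and -54, with none from -173 to -60. 3 starts, 1 each of CCND3, CDK6 and CDKN2A, have none.

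At 8 nM, none of the 10 genes passed the test (limma over all 9 arrays, Benjamini-Hochberg adjusted p under 0.05 over all genes). Over all genes tested, 7.91% rose and 5.72% fell. CCND1, CCNE2 and CDK2, 3 of the 10, had an unadjusted p under 0.05, near the share of all genes tested (6717 of 21832). By the fold rule of the study (a fold of 1.5 or more, or of 0.67 or less, where the unadjusted p is under 0.05) again none of the 10 was called, where 4.25% of all genes were called higher and 2.84% lower. The median change of the 10 genes was -0.14, beside -0.06 over all genes. At 80 nM, 8 of the 10 genes passed against untreated, with 5 higher (CCND2, CCND3, CCNE2, CDK2 and CDK4) and 3 lower (CDK6, CDKN1B and CDKN2A). The background was wide, as 33.3% of all genes rose and 25.7% fell. The fold rule called 4 of the 10 higher and 3 lower at 80 nM, against 18.8% and 16.3% of all genes, and left out CCND2. The median size of the change at 80 nM, regardless of sign, was 1.11 for the 10 genes and 0.42 for all genes. Between 8 and 80 nM, 4 of the 10 rose and 4 fell, against 34.6% and 22.9% of all genes.

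**Figure D2:**
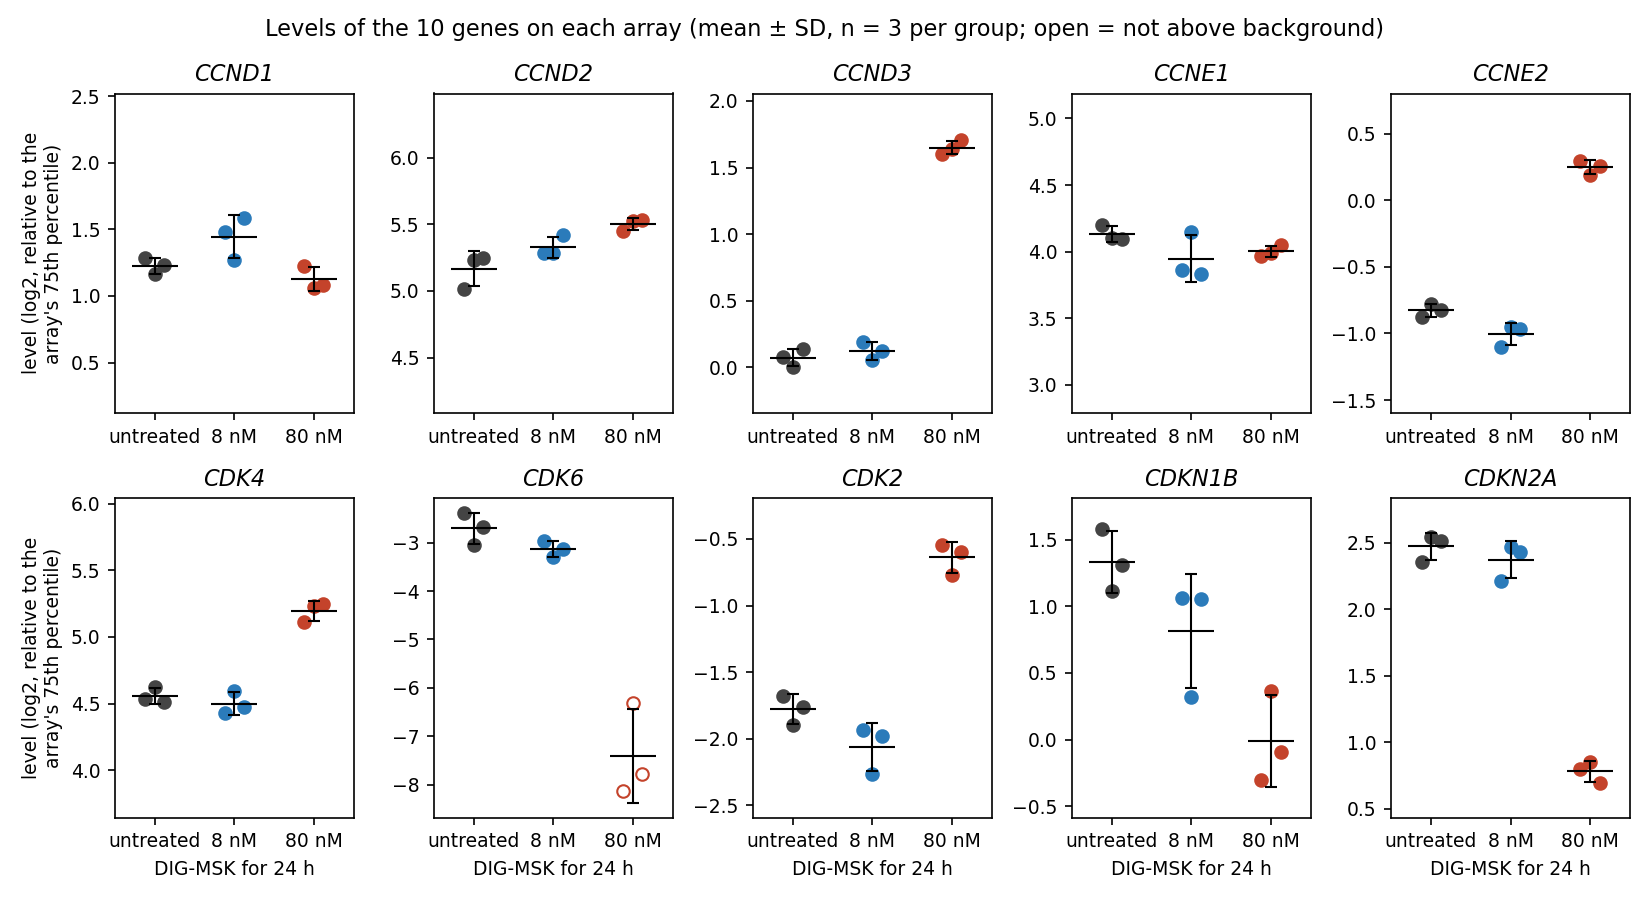
Level of each of the 10 genes on each array (points), with the mean and SD of the 3 arrays of a group (black), as log2 relative to the 75th percentile of the array. Scales differ between panels, and open points mark arrays on which a probe was not well above background, which was so for CDK6 on all 3 arrays of 80 nM.

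Among the D-type cyclins, which join CDK4 and CDK6, CCND3 showed the largest rise of the 10 genes at 80 nM. Its levels were 0.08, 0.0066 and 0.14 on the untreated arrays, 0.19, 0.05 and 0.12 at 8 nM, and 1.60, 1.64 and 1.71 at 80 nM. The 80 nM arrays lay more than 1 unit above all others, and those of 8 nM overlapped with untreated. CCND3 rose 2.98-fold at 80 nM (log2 change 1.58, SE 0.07, limma adjusted p = 7.6e-07, n = 3 per group). At 8 nM the change was 0.05 (95% interval -0.12 to 0.21, limma adjusted p = 0.68), and from 8 to 80 nM CCND3 rose by 1.53 (limma adjusted p = 8.7e-07).

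CCND2 rose 1.26-fold at 80 nM. Its levels were 5.02, 5.24 and 5.25 untreated, 5.28, 5.28 and 5.42 at 8 nM, and 5.45, 5.52 and 5.53 at 80 nM. The 3 groups did not overlap. The rise of 0.34 at 80 nM passed the test (SE 0.09, limma adjusted p = 0.0093). Neither the 0.16 at 8 nM (limma adjusted p = 0.23) nor the 0.17 from 8 to 80 nM (limma adjusted p = 0.11) passed. CCND2 at 80 nM lost its call where arrays were scaled to their median (0.28, limma adjusted p = 0.062) or to the spike-in probes, RNAs of known amount added at labelling (0.06, limma adjusted p = 0.89).

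CCND1, which encodes the D-type cyclin most often amplified in tumours, differed little from untreated at 80 nM. Its levels were 1.29, 1.17 and 1.23 untreated, 1.48, 1.27 and 1.58 at 8 nM, and 1.23, 1.06 and 1.08 at 80 nM. The 8 nM arrays reached above the untreated ones with 1 array inside their range, and the 80 nM arrays overlapped with untreated. The change was -0.10 at 80 nM (95% interval -0.32 to 0.11, limma adjusted p = 0.38) and 0.22 at 8 nM (0.0004 to 0.44, limma adjusted p = 0.16). From 8 to 80 nM CCND1 fell by 0.32 (SE 0.10, limma adjusted p = 0.019), with all 80 nM arrays below all 8 nM arrays. Without 8 nM replicate 2 CCND1 passed at 8 nM as well (0.30, limma adjusted p = 0.037). The fall from 8 to 80 nM missed the threshold without 8 nM replicate 1 (limma adjusted p = 0.052), 8 nM replicate 3 (0.063), 80 nM replicate 2 (0.064) or 80 nM replicate 3 (0.062), and under the spike-in scaling (0.059).

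Of the E-type cyclins, the partners of CDK2, CCNE2 rose at 80 nM and CCNE1 did not pass. CCNE2 had levels of -0.87, -0.78 and -0.82 untreated, -1.10, -0.95 and -0.97 at 8 nM, and 0.30, 0.19 and 0.26 at 80 nM. The 8 nM arrays were all below the untreated ones and the 80 nM arrays all above. CCNE2 rose 2.11-fold at 80 nM (log2 change 1.07, SE 0.07, limma adjusted p = 6.4e-06) and by 1.25 from 8 to 80 nM (limma adjusted p = 2.8e-06). At 8 nM the change was -0.18 (limma adjusted p = 0.13). A dimmer probe of CCNE2, with 1 spot per array, gave the same signs with a wider error. It changed by 0.45 at 80 nM (SE 0.23, limma adjusted p = 0.12), by -0.56 at 8 nM (limma adjusted p = 0.14) and by 1.01 from 8 to 80 nM (limma adjusted p = 0.0054), so the rise against untreated passed with 1 of the 2 probes.

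CCNE1 passed the test in no comparison. Its levels were 4.20, 4.10 and 4.10 untreated, 3.86, 4.15 and 3.83 at 8 nM, and 3.97, 3.99 and 4.05 at 80 nM. On 8 nM replicate 2 it was within the untreated range, while replicates 1 and 3 of 8 nM and all 80 nM arrays were below it. The change was -0.19 at 8 nM (95% interval -0.40 to 0.03, limma adjusted p = 0.22) and -0.13 at 80 nM (-0.35 to 0.09, limma adjusted p = 0.26). Without 8 nM replicate 2 the change at 8 nM was -0.29 and passed (limma adjusted p = 0.023). The authors' own log2 values put the 80 nM change at -0.16 with a call (limma adjusted p = 0.039). From 8 to 80 nM CCNE1 changed by 0.05 (limma adjusted p = 0.64).

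CDK4 and CDK6, the kinases of the D-type cyclins, went opposite ways at 80 nM. CDK4 had levels of 4.53, 4.63 and 4.51 untreated, 4.43, 4.60 and 4.47 at 8 nM, and 5.11, 5.23 and 5.25 at 80 nM. All 80 nM arrays lay above all others, and the 8 nM arrays overlapped with untreated. CDK4 rose 1.56-fold at 80 nM (log2 change 0.64, SE 0.08, limma adjusted p = 0.00018) and by 0.70 from 8 to 80 nM (limma adjusted p = 0.00012), with -0.06 at 8 nM (limma adjusted p = 0.63). Scaled to the spike-in probes, the 80 nM change was 0.36 and did not pass (limma adjusted p = 0.24), and the sign at 8 nM turned (0.02).

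CDK6 was the gene with the largest fall. Its levels were -2.39, -3.04 and -2.68 untreated and -2.96, -3.30 and -3.14 at 8 nM, which overlap. On the 80 nM arrays its probe was not well above background, with measured levels of -8.14, -6.30 and -7.79, which give an approximate bound only. Each array carries 2 spots of the probe, and of the 6 spots at 80 nM 1 was above background, on replicate 2, at -4.37 (intensity 43.1), where its twin was at -8.24 (intensity 2.96). Even that brighter spot was below every untreated and 8 nM spot, the lowest of which was at -3.36.

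An approximate bound on this scale was set from the lowest level that counted as above background on each 80 nM array. The detected spot of replicate 2 stood for its array (mean -5.40). With CDK6 set at these levels, it was 6.49-fold lower at 80 nM than in untreated cells and 4.83-fold lower than at 8 nM. A probe not above background can lie above the lowest such level, so the fall could be smaller. 1 PTPRC probe, above background on no array, averaged -5.78 at 80 nM, where those lowest levels averaged -5.97. The bounds themselves were not tested. The test used the measured levels, which were not well above background at 80 nM. It gave log2 changes of -4.71 against untreated and -4.28 against 8 nM (limma adjusted p = 3.5e-05 and 6.8e-05). The measured group means were -2.70 untreated, -3.13 at 8 nM and -7.41 at 80 nM. At 8 nM the change was -0.43 (95% interval -1.39 to 0.54, limma adjusted p = 0.52). The size at 80 nM depended on the processing, and with other processing it was smaller than this bound. The change was -1.57 with normexp (offset 50) and -2.23 in the authors' log2 values, and it passed in both (limma adjusted p = 7.2e-06 and 1.5e-06). The lower signal of the negative controls on the 80 nM slide, given above, moved with this group and its part in the result was not tested.

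CDK2, the kinase of the E-type cyclins, had levels of -1.68, -1.89 and -1.76 untreated, -1.93, -2.27 and -1.98 at 8 nM, and -0.54, -0.77 and -0.60 at 80 nM. Each level is from up to 10 spots per array, as outlier spots were left out. The 8 nM arrays were all below the untreated ones and the 80 nM arrays all above both groups. CDK2 rose 2.21-fold at 80 nM (log2 change 1.14, SE 0.11, limma adjusted p = 5.8e-05) and by 1.42 from 8 to 80 nM (limma adjusted p = 1.8e-05). At 8 nM the change was -0.28 (95% interval -0.54 to -0.03), which did not pass (limma adjusted p = 0.13). Like CCND3 and CCNE2, CDK2 kept its call at 80 nM under the spike-in scaling (log2 change 0.86, limma adjusted p = 0.02).

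Both inhibitors fell at 80 nM. CDKN2A, measured by 2 probes of different transcripts (NM_058197 and NM_000077), had levels on the first of 2.36, 2.54 and 2.51 untreated, 2.21, 2.47 and 2.43 at 8 nM, and 0.80, 0.85 and 0.70 at 80 nM. On the second they were 0.37, 0.58 and 0.56 untreated, 0.28, 0.28 and 0.35 at 8 nM, and -1.59, -1.63 and -1.68 at 80 nM. With both probes the 80 nM arrays lay more than 1 unit below all others. CDKN2A fell 3.22-fold at 80 nM on the first probe (log2 change -1.69, SE 0.09, limma adjusted p = 2.4e-06) and by 2.14 on the log2 scale on the second (SE 0.08, limma adjusted p = 2.5e-07). At 8 nM the changes were -0.10 (limma adjusted p = 0.50) and -0.20 (limma adjusted p = 0.12). On the second probe the 8 nM arrays too were all below the untreated ones, without passing the test. Which annotated start each of these transcripts uses was not settled, so the 2 probes were not assigned to p16 or ARF. The p16 and ARF proteins were not measured.

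CDKN1B, the p27 gene, fell with both of its probes, by different amounts. The brighter probe, with 1 spot per array, gave 1.58, 1.11 and 1.31 untreated, 1.06, 0.32 and 1.06 at 8 nM, and -0.30, 0.37 and -0.10 at 80 nM. The 80 nM arrays were below all untreated arrays but overlapped with those of 8 nM, where replicate 2 was low. By this probe CDKN1B fell 2.54-fold at 80 nM (log2 change -1.35, SE 0.25, limma adjusted p = 0.0018) and changed by -0.52 at 8 nM (limma adjusted p = 0.19). The fall from 8 to 80 nM was 0.83 on the log2 scale (limma adjusted p = 0.02), and missed the threshold without 8 nM replicate 1 (0.063) or 3 (0.066) and without 80 nM replicate 1 (0.069) or 3 (0.056).

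The other probe of CDKN1B, with 10 spots per array, gave 0.57, 0.72 and 0.55 untreated, 0.62, 0.67 and 0.62 at 8 nM, and 0.14, 0.16 and 0.22 at 80 nM. Its 8 nM arrays fell inside the untreated range and its 80 nM arrays below every other. It fell by 0.44 on the log2 scale at 80 nM (SE 0.07, limma adjusted p = 0.00088) and by 0.46 from 8 to 80 nM (limma adjusted p = 0.00074), with 0.02 at 8 nM (95% interval -0.14 to 0.18). The size of the CDKN1B fall at 80 nM thus rested on the probe, and its direction did not.

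**Figure D3:**
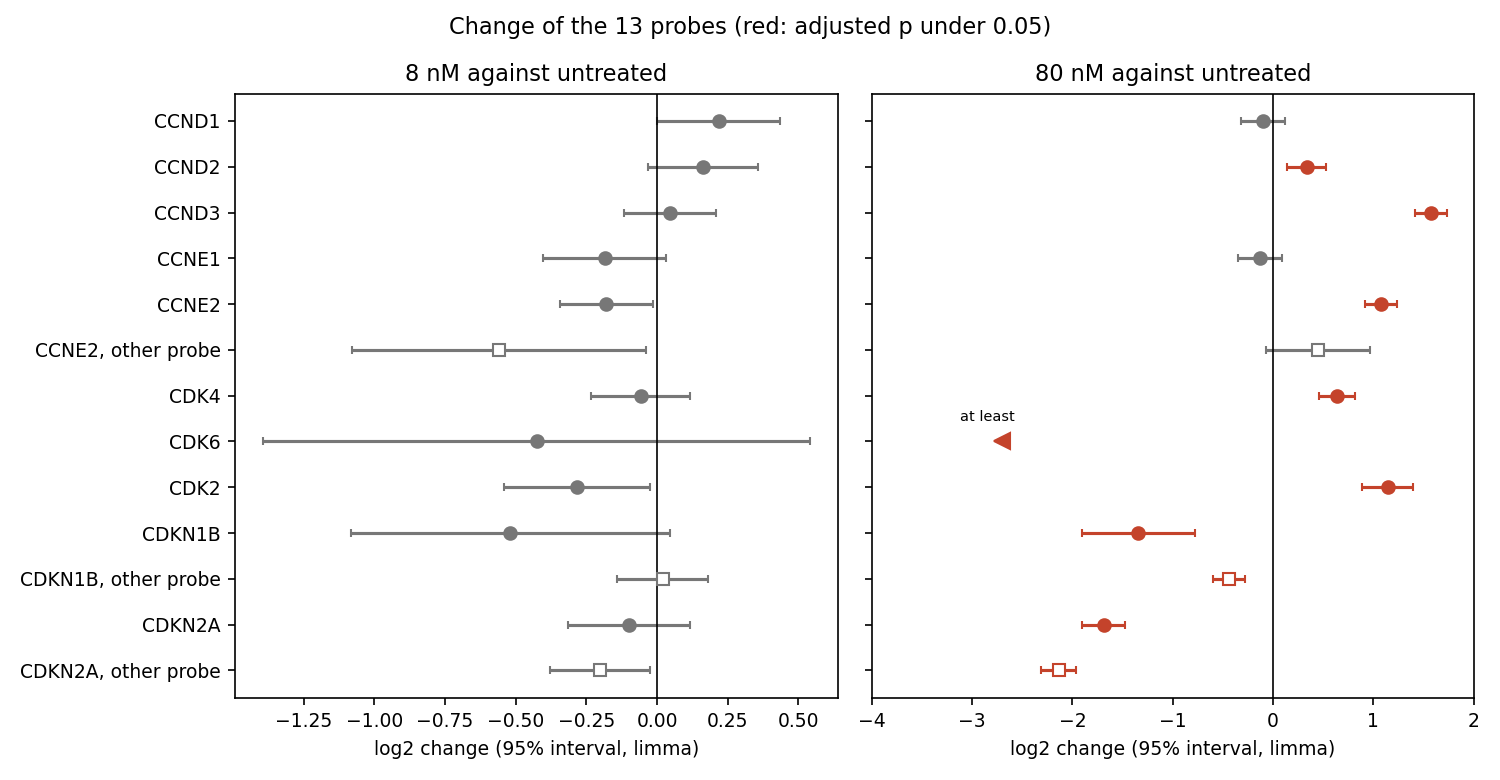
Change of each of the 13 probes against untreated at 8 nM (left) and 80 nM (right), as log2 with the 95% interval from limma, on different scales. Circles are the probe that stands for a gene, squares the other probes, and red marks an adjusted p under 0.05. The triangle is the approximate bound of CDK6, a log2 fall of 2.70 on this scale. The colour of the triangle is from the test of the measured levels, not of the bound. No probe passed at 8 nM, and 10 of the 13 passed at 80 nM. Of all genes tested, 7.91% rose and 5.72% fell at 8 nM, and 33.3% rose and 25.7% fell at 80 nM.

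Over all genes tested, the median change at 80 nM was 0.08, and -0.20 under the spike-in scaling. With that scaling 3 of the 10 genes rose (CCND3, CCNE2, CDK2) and 3 fell (CDK6, CDKN1B, CDKN2A), in place of 5 and 3. Of all 21832 genes 1817 rose and 5056 fell with it, in place of 7272 and 5606. With the untreated and 8 nM arrays fitted as pairs, none of the 10 genes passed at 8 nM.

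The surroundings of these genes in the pathway were described with 5 lists, 45 genes in all, of which 44 were tested. CDKN2B, which encodes the p15 inhibitor, was close to background on all 9 arrays and was not tested. At 8 nM, where none of the 10 genes passed, 20 of the 44 did, with 4 higher and 16 lower, against 7.91% and 5.72% of all genes. At 80 nM 15 rose and 14 fell, shares near those of all genes (33.3% and 25.7%). Their median change was -0.17 at 8 nM and -0.01 at 80 nM, beside -0.06 and 0.08 over all genes. The count at 8 nM was sensitive to the fit. It was 3 with the untreated and 8 nM arrays alone and the replicate number as a block (CDKN1A and FBXW7 higher, MYBL2 lower), and 8 with those arrays and no block. It was 7 after median scaling and 1 (CDKN1A) after spike-in scaling, and 13, 10 and 12 without untreated replicate 2, untreated replicate 3 and 8 nM replicate 3. Over all 21832 genes the count at 8 nM was 2974, and it too was lower in these fits. It was 799 with the block on the untreated and 8 nM arrays and 1521 with those arrays and no block. It was 1872 after median scaling and 373 after spike-in scaling. At 80 nM spike-in scaling left 17 of the 44, with 3 higher and 14 lower. Of all genes it left 1817 higher and 5056 lower.

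Of the other CDK inhibitors, CDKN1A, which encodes p21, rose by 1.82 at 8 nM (limma adjusted p = 0.00022) and by 1.90 at 80 nM (limma adjusted p = 1.2e-05). CDKN2C, the p18 gene, fell by 0.27 at 8 nM (limma adjusted p = 0.019) and rose by 1.06 at 80 nM (limma adjusted p = 2.1e-06). CDKN1C (p57) and CDKN2D (p19) fell by 0.45 and 0.48 at 80 nM (limma adjusted p = 0.0032 for both) and did not pass at 8 nM. Thus 2 of these 4 inhibitors rose at 80 nM and 2 fell, as CDKN1B and CDKN2A did. Of all genes, 33.3% rose and 25.7% fell at 80 nM.

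Among the 10 pocket proteins and E2F or DP factors, 4 fell and 1 rose at 8 nM, where 5.72% of all genes fell and 7.91% rose. At 80 nM 4 rose and 4 fell, near the 33.3% and 25.7% of all genes. E2F1 and E2F2, activating factors, fell at 8 nM by 0.67 (limma adjusted p = 0.0086) and 0.56 (limma adjusted p = 0.013), as did RBL1 (p107) by 0.52 (limma adjusted p = 0.0015) and the DP partner TFDP1 by 0.41 (limma adjusted p = 0.0074). RBL2 (p130), the pocket protein of resting cells, rose by 0.34 (limma adjusted p = 0.019). At 80 nM E2F4 rose by 0.77 (limma adjusted p = 0.00041) and RB1 by 0.41 (limma adjusted p = 0.0051), while TFDP2 fell by 0.71 (limma adjusted p = 0.0021) and E2F1 by 0.42 (limma adjusted p = 0.015). TFDP1, counted among the 4 that rose at 80 nM (0.38, limma adjusted p = 0.0017), had a second probe with the opposite sign that did not pass (-0.22, limma adjusted p = 0.38). With spike-in scaling none of the 10 rose at 80 nM and 4 fell, where 1817 of 21832 genes rose and 5056 fell. At 8 nM none of the 10 rose or fell with that scaling, where 347 of all genes rose and 26 fell. With the untreated and 8 nM arrays fitted as pairs again none did, where 623 of all genes rose and 176 fell.

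The 6 genes of CDK activation all had changes below 0 at 8 nM, with 2 passing, where 5.72% of all genes fell. These were CDC25A, the phosphatase that activates CDK2, which fell by 0.41 (limma adjusted p = 0.012), and CKS2, which fell by 0.29 (limma adjusted p = 0.04). At 80 nM 4 of the 6 fell and none rose, against 25.7% and 33.3% of all genes. All 3 genes of the CDK-activating kinase were among them, with changes of -1.11 for MNAT1 (limma adjusted p = 9.8e-05), -0.72 for CCNH and -0.44 for CDK7 (limma adjusted p = 0.0017 for both). Under spike-in scaling 4 of the 6 again fell at 80 nM, where 5056 of 21832 genes did. The median of the 6 was then -0.77 in place of -0.49. At 8 nM none of the 6 fell after median or spike-in scaling, with the untreated and 8 nM arrays alone, or with these as pairs. Of all genes 509, 26, 487 and 176 fell in these fits, and 1248 in the main fit. Without 8 nM replicate 2 the count was 4 of the 6, where 2008 of all genes fell.

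Of 9 subunits of ubiquitin ligases that mark G1 cyclins and p27 for destruction, SKP2, which targets p27, fell by 0.81 at 8 nM (limma adjusted p = 0.0053) and did not pass at 80 nM (-0.20, limma adjusted p = 0.21). FBXW7, which targets cyclin E, rose by 0.78 at 8 nM (limma adjusted p = 0.0056) and by 0.69 at 80 nM (limma adjusted p = 0.0016). Of the genes linked to cyclin D turnover, FBXO4 rose at 80 nM by 1.40 (limma adjusted p = 4.3e-05), whereas FBXO31 fell by 0.89 (limma adjusted p = 0.0044) and AMBRA1 by 0.86 (limma adjusted p = 1.4e-05). A second AMBRA1 probe did not pass and had the opposite sign (0.34, limma adjusted p = 0.29). In all, 2 of the 9 rose and 3 fell at 80 nM, near the 33.3% and 25.7% of all genes. At 8 nM 1 rose and 1 fell, where 7.91% and 5.72% of all genes did.

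Of 15 known E2F targets of the G1/S step, 8 fell and 1 rose at 8 nM, where 5.72% and 7.91% of all genes did, while 1 fell and 7 rose at 80 nM, where 25.7% and 33.3% did. At 8 nM 13 of the 15 had changes below 0, with a median of -0.38 beside -0.06 over all genes. The falls were 0.79 for MYBL2 (limma adjusted p = 5.0e-04), 0.41 for CCNA2, 0.43 for CDC6 and between 0.33 and 0.52 for the helicase subunits MCM2, MCM4, MCM5, MCM6 and MCM7. PCNA, the sliding clamp of DNA polymerase, rose by 0.33 (limma adjusted p = 0.026). The named changes at 80 nM were 1.03 for RRM2, a subunit of ribonucleotide reductase (limma adjusted p = 0.00067), 0.80 for PCNA (limma adjusted p = 5.2e-05) and -0.93 for MCM5 (limma adjusted p = 0.00012). From 8 to 80 nM 12 of the 15 rose and 1 fell (MCM5), against 34.6% and 22.9% of all genes, with a median change of 0.47 beside 0.12 over all genes. The number that fell at 8 nM was 1 in the paired fit and 4 with no filter on dim probes. It was 1 after median scaling and 0 after spike-in scaling, with a median of -0.30 after the last, beside 0.02 over all genes. Of all genes 1248 fell in the main fit, and 176, 609 (of 34977), 509 and 26 in these fits. After spike-in scaling none of the 15 rose at 80 nM, where 1817 of 21832 genes did. From 8 to 80 nM 2 of the 15 rose with it, where 1305 of all genes did. Leaving out untreated replicate 2, untreated replicate 3, 8 nM replicate 1 or 8 nM replicate 3 gave 4, 2, 5 and 4 falls at 8 nM. Of all genes 665, 540, 1223 and 633 fell with these arrays left out. The count of rises of the 15 at 80 nM was 3 after median scaling and 4 without 80 nM replicate 3. Over all genes it was 5875 and 6346, and 7272 in the main fit.

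**Figure D4:**
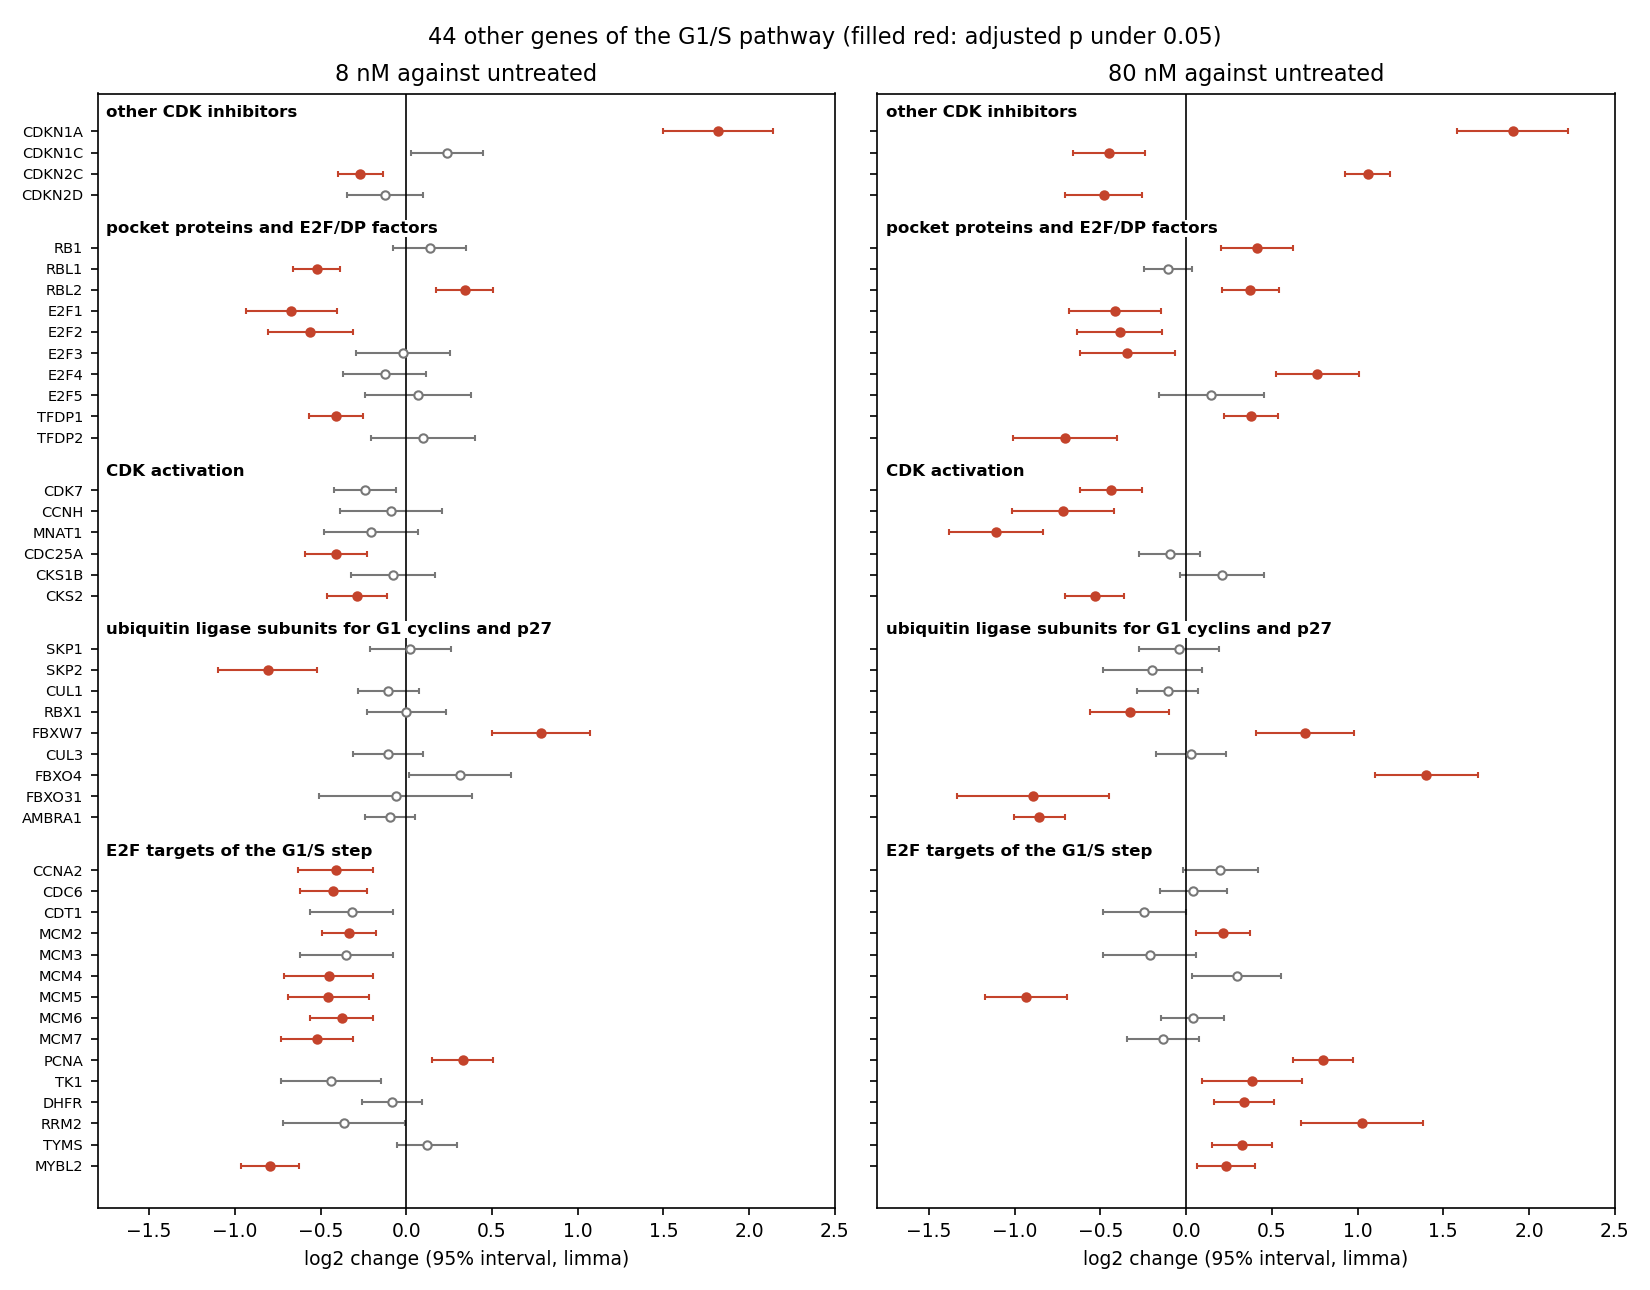
Log2 change against untreated at 8 nM (left) and 80 nM (right) of 44 other genes of the pathway in 5 lists, with the 95% interval from limma. Filled red points have an adjusted p under 0.05. At 8 nM 13 of the 15 E2F targets lie below 0, and at 80 nM 7 of them rose and MCM5 fell. Of all genes tested, 33.3% rose and 25.7% fell at 80 nM.

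Over the 9 arrays and 12697 named genes well above background on all of them, the genes whose levels followed CCND3 most closely were TNS2, EMP3 and SQSTM1 (Pearson r = 0.998, 0.997 and 0.997). Those closest to CDKN2A, the gene with the largest fall among the 9 members above background on every array, were GPC3, RAB3IP and NSD1 (r = 0.998, 0.997 and 0.997). Changes at 80 nM were 2.29, 1.93 and 1.03 for the first 3 and -2.71, -4.70 and -1.37 for the last 3. The 9 points share 3 groups and 2 slides.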

How the data were processed

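RNA of A2780 cells was measured on 9 one-colour Agilent arrays, with groups and replicate numbers taken from the labels. The authors extracted spot intensities with Agilent Feature Extraction 10.7.3.1, per the labels' processing notes, and the deposited processed intensity is background-corrected and unscaled. The authors also deposited log2 values per spot, which have the same quantiles on every array and were used as an alternative only. The array headers name hg19, and no coordinates were taken from them.

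From the intensities, log2 levels relative to the 75th percentile of each array were computed. Control and outlier spots were left out and spots of a probe averaged. A probe was kept if well above background (most of its spots) on all 3 arrays of a group, and a gene was represented by its brightest kept probe. RefSeq (GRCh38.p14) gave current symbols to 25715 of the 27245 probes that carry its accessions. limma 3.58.1 in R 4.3.3 was fitted over all 9 arrays, with Benjamini-Hochberg adjustment over 21832 genes, and was tested on simulated data. p-values measure the spread between these cultures.

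The members, lists and tests were chosen with earlier results of these data known. The genes named are the 10 members, and from each list every gene that passed at 8 nM and the 2 that changed most in each direction among those that passed at 80 nM. CDK7 and CDKN2B, outside this rule, were named after their values were seen. 1 marker gene is not reported here. Deviations of same-numbered untreated and 8 nM arrays had correlations of 0.101 to 0.163, against -0.124 to -0.003 for unlike numbers. The deviations were taken from the group means, which ties the 2 ranges to each other. Unlike-numbered 8 and 80 nM arrays reached 0.125, so pairing was not established. Same-numbered untreated and 8 nM arrays were treated as pairs in an alternative added after seeing the data. The use of a detected spot in the bound of CDK6 was also chosen after seeing the data. For the 80 nM arrays the correlations with same-numbered arrays of the other groups were -0.124 to 0.016. Alternatives were normexp (offset 50) on the median spot signal, as no mean signal was used, quantile, median and spike-in scaling, the authors' values, no filter on dim probes, detection required on all 9 arrays, the mean of the probes of a gene, each probe separately, only the groups compared, the replicate block, and each array left out.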

Additional observations from a re-analysis of the deposited data

How the results depend on the processing

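With 3 arrays per group the precision is limited, and dim probes such as that of CDK6 at 80 nM give approximate bounds only. The count of the 10 genes that passed at 8 nM was 0 under every alternative except leaving out 8 nM replicate 2, so that arrays left out in turn gave 0 to 2. At 80 nM it was 8, between 6 (spike-in scaling) and 9 (the authors' values), and 8 whichever array was left out. Between 8 and 80 nM it was 8, and 6 to 8 with arrays left out. With the replicate block the 10 genes gave 0, 8 and 8 calls in the 3 comparisons, and with the block on the untreated and 8 nM arrays alone 0 at 8 nM, so the block changed no call of the 10 genes. For the other pathway genes at 8 nM, 20 passed. This became 7 after median scaling, 1 after spike-in scaling, 12 with no filter on dim probes, 8 with only the compared groups, 14 with the replicate block over all arrays, 3 with the replicate block on the untreated and 8 nM arrays, and 10 to 25 with arrays left out. Over all genes the 2974 calls at 8 nM became 1872, 373, 1790 (of 34977), 1521, 2271 and 799 in the same order. With arrays left out they were 1648 to 3926. At 80 nM 29 pathway genes passed, 17 after spike-in scaling and 24 to 33 with arrays left out. Over all genes 12878 passed there, and 6873 after spike-in scaling. Between 8 and 80 nM 32 pathway genes passed, 14 after spike-in scaling and 26 to 33 with arrays left out. Over all genes 12565 passed there, and 6433 after spike-in scaling. Among the 10 genes, signs turned in changes that had not passed. CCND2 from 8 to 80 nM was -0.18 after spike-in scaling. CCNE1 from 8 to 80 nM was -0.0572 after median scaling, -0.30 after spike-in scaling, -0.0345 in the authors' values, and -0.0038 to 0.1553 with arrays left out, the lowest without 8 nM replicate 3. CDK4 at 8 nM was 0.0372 after quantile normalization, 0.0184 after spike-in scaling and 0.0156 in the authors' values. The other CDKN1B probe gave 0.02 at 8 nM. Of 12 pathway genes with a second probe, its sign differed for 0 at 8 nM and 6 at 80 nM, among them AMBRA1 (0.34) and TFDP1 (-0.22), which had passed, and the call differed for 1 and 5. By the probe means alone, without its detected spot, the approximate bound of CDK6 against untreated was 9.62-fold. CDK6 has no value where detection on all 9 arrays was required. The cause of these differences was not tested, other than that fits of 2 groups use fewer arrays.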
